A study of Homo sapiens with 4 samples.

Results

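The microRNAs miR-193 and miR-365 are encoded in a pair of human clusters, MIR193B with MIR365A on chromosome 16 and MIR193A with MIR365B on chromosome 17. All rows of the count table named for an arm of these 4 hairpins were taken, 7 of 826. The rows of miR-365a-3p and miR-365b-3p have the same 4 counts and are described as 1, miR-365-3p, which leaves 6 distinct members. The identical rows are named hsa-miR-365a-3p and hsa-miR-365b-3p, and the other members are hsa-miR-193b-3p, hsa-miR-193b-5p, hsa-miR-193a-5p, hsa-miR-365a-5p and hsa-miR-365b-5p (written below without hsa-), while miR-193a-3p was not analysed here. The samples were H661 cells, an established human lung cancer line, given either the solvent dimethyl sulfoxide (DMSO, 2 libraries) or, at 2.5 µM, the class I histone deacetylase inhibitor entinostat (2 libraries), for 8 h. All cells grew in RPMI1640 medium with 10% FBS, and each library started from 1 µg of total RNA. The comparison asks how entinostat changed miRNA abundance in this line. Separate cultures are not named for the replicates, so the spread behind each p-value is that of these libraries and may be technical.

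A miRNA hairpin is cut into a 5p and a 3p arm, and the arm held by an Argonaute protein pairs with messenger RNAs mainly through its seed, bases 2 to 8. The miR-193 family is known to repress growth and survival genes such as CCND1, MCL1 and PLAU, and miR-365 has been reported to repress the lung transcription factor gene NKX2-1. The miR-193b and miR-365 cluster is also known from brown fat, where it is made in quantity.

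The mature sequences (RefSeq, GRCh38.p14, 5′ to 3′, seed in capitals) are shown because the seeds group the members and because identity decides which rows can be told apart. All 8 names of the clusters matched an entry.
miR-193a-5p: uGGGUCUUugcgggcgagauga
miR-193a-3p: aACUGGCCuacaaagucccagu
miR-193b-5p: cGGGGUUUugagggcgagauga
miR-193b-3p: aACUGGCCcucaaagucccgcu
miR-365a-5p: aGGGACUUuugggggcagaugug
miR-365b-5p: aGGGACUUucaggggcagcugu
miR-365a-3p and miR-365b-3p: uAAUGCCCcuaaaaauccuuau
Both miR-193 3p arms share the seed ACUGGCC and are identical at 18 of 22 positions, differing at U9C, A10U, A20G and G21C (miR-193a base first, positions from the 5′ end). Their 5p arms differ within the seed, at U5G and C6U, and also at U1C and C11A. The miR-365 5p arms share the seed GGGACUU and differ at U10C, G11A and A19C over 22 positions, and miR-365a-5p is 1 base longer. Among the listed miRNAs with a RefSeq sequence, none outside the clusters had the seed of a listed member. A 3p read of miR-365 cannot be assigned to a hairpin, whereas the 5p reads can, as far as the counting kept near-identical sequences apart.

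The hairpins show where each arm lies, with both mature arms in capitals.
MIR193B: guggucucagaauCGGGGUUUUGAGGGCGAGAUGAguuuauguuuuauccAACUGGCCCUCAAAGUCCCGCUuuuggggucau
MIR365A: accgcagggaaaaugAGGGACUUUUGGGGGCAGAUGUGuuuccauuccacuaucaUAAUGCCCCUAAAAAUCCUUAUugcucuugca
MIR193A: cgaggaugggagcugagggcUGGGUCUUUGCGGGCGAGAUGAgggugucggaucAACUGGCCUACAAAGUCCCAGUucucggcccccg
MIR365B: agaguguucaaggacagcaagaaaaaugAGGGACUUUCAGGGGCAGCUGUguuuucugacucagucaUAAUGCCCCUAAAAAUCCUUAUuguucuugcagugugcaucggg
MIR193B (chr16:14303967-14304049, plus strand) and MIR365A (chr16:14309285-14309371, plus strand) are 5.24 kb apart, and both lie in introns of the long non-coding RNA gene MIR193BHG on the same strand. MIR193A (chr17:31559996-31560083, plus strand) lies in no annotated gene other than its own in GENCODE 29. MIR365B (chr17:31575411-31575521, plus strand) lies 15.3 kb downstream of it, in an exon of the long non-coding RNA gene that RefSeq names MIR365BHG.

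The libraries held 547875 to 938559 miRNA counts, and the members together made up under 0.2% of each. Levels are counts per 1e+06 counts of a library's rows kept for testing (CPM), after scaling with trimmed-mean-of-M-values (TMM) factors. The members, with miR-365-3p once, held 0.155% of DMSO replicate 1 (exact 95% interval 0.147 to 0.164%) and 0.140% of DMSO replicate 2 (0.130 to 0.150%). With entinostat they held 0.134% of replicate 1 (0.124 to 0.144%) and 0.187% of replicate 2 (0.177 to 0.197%). Entinostat replicate 2 thus had the highest share and entinostat replicate 1 the lowest, and both DMSO libraries lay between them. These intervals cover counting error only. Of the miRNAs that mark a tissue or cell type, epithelial ones summed to 56.7 and 41.0 CPM with DMSO (53 and 23 counts, 4 of 7 names had a row). With entinostat they summed to 77.3 and 59.3 CPM (42 and 45 counts). Both entinostat libraries lay above both DMSO libraries, the lower one by little, as was so for 20.7% of all single tested miRNAs. The part of this in the members' values was not tested. Blood ones summed to 193.3 to 241.2 CPM (2 of 6). Muscle ones summed to 5.34 to 12.9 CPM (2 of 4), and the liver marker miR-122-5p had 5 counts in DMSO replicate 1 and 0 in the other libraries.

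None of the members passed the threshold between entinostat and DMSO. In the edgeR quasi-likelihood test all 7 rows were tested, and 0 had an adjusted p (Benjamini-Hochberg) under 0.05, the threshold for a call, where 0 of all 401 tested miRNAs (0.0%) were called. At an unadjusted p under 0.05 the test gave 0 members, against 27 of the 401 (6.73%), and DESeq2 and limma-voom also called 0 miRNAs. The edgeR likelihood ratio test called 4, none of them a member. Of the 6 distinct members, 3 lay above and 3 below 0, with a median log2 fold change of -0.00395, beside 0.00466 over all tested miRNAs.

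The chromosome 16 cluster gave the second most abundant member, miR-193b-3p, which carries the family's shared seed. The DMSO libraries held 429 and 239 of its counts and the entinostat libraries 238 and 498, levels of 459.1 and 425.7 CPM against 438.1 and 656.5 CPM. Entinostat replicate 2 was high, and entinostat replicate 1 lay between the DMSO libraries, so the groups overlapped. The means were 442.4 ± 23.6 and 547.3 ± 154.4 CPM (SD, n = 2), a log2 fold change of 0.32 (SE 0.18, 95% interval -0.10 to 0.73, edgeR adjusted p = 0.605). The value rested on entinostat replicate 2. Without that library it was -0.024, and without entinostat replicate 1 it was 0.55 and miR-193b-3p was called higher. In each of these fits the lone entinostat library is assumed to vary like the DMSO libraries.

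The other arm of that hairpin, miR-193b-5p, was rare. Only 28 and 14 counts were seen in the DMSO libraries and 13 and 20 in the entinostat libraries, or 30.0 and 24.9 CPM against 23.9 and 26.4 CPM. The groups overlapped, and the log2 fold change was -0.14 with a 95% interval of -0.96 to 0.68 (edgeR adjusted p = 0.927). At this depth a change of up to 1.6-fold upward or to 0.514 of the DMSO level lay inside the interval.

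The most abundant member was miR-365-3p, which both clusters can supply. Its counts were 607 and 336 with DMSO and 324 and 572 with entinostat, levels of 649.7 and 598.5 CPM against 596.4 and 754.0 CPM. As for miR-193b-3p, entinostat replicate 2 stood highest and entinostat replicate 1 was close to the lower DMSO library. The log2 fold change was 0.12 (SE 0.13, 95% interval -0.19 to 0.42, edgeR adjusted p = 0.796). Leaving out entinostat replicate 2 turned it to -0.075 and leaving out replicate 1 raised it to 0.25, and miR-365-3p was called in neither case.

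The 5p arms of miR-365 tell the chromosomes apart, since they differ in sequence. From chromosome 16, miR-365a-5p had 224 and 105 counts in the DMSO libraries against 71 and 168 after entinostat, or 239.7 and 187.0 CPM against 130.7 and 221.5 CPM. Entinostat replicate 1 was the lowest library, and replicate 2 lay between the DMSO libraries. The log2 fold change was -0.27 (SE 0.24, 95% interval -0.81 to 0.28, edgeR adjusted p = 0.741). On leaving out entinostat replicate 2 it stood at -0.73, and on leaving out replicate 1 at 0.016.

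From chromosome 17, miR-365b-5p was counted 53 and 16 times in the DMSO libraries and 25 and 58 times after entinostat, or 56.7 and 28.5 CPM against 46.0 and 76.5 CPM. DMSO replicate 2 was low and entinostat replicate 2 high, and the remaining libraries were intermediate and crossed. The log2 fold change of 0.48 had a 95% interval of -0.36 to 1.31 (SE 0.37, edgeR adjusted p = 0.678). Leaving out 1 library at a time moved it between 0.026, without entinostat replicate 2, and 1.12, without DMSO replicate 1.

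The remaining chromosome 17 member, miR-193a-5p, had the narrowest gap between the entinostat libraries on the log2 scale. Its counts were 117 and 76 in the DMSO libraries against 63 and 92 after entinostat, or 125.2 and 135.4 CPM against 116.0 and 121.3 CPM. Both entinostat libraries lay below both DMSO libraries. It was the only member whose groups did not overlap, 1 of 6, where 40.6% of all tested miRNAs did not overlap, 20.7% with entinostat higher and 20.0% with it lower. The difference was small, a log2 fold change of -0.12 (SE 0.17, 95% interval -0.51 to 0.26, edgeR adjusted p = 0.859).

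**Figure D1:**
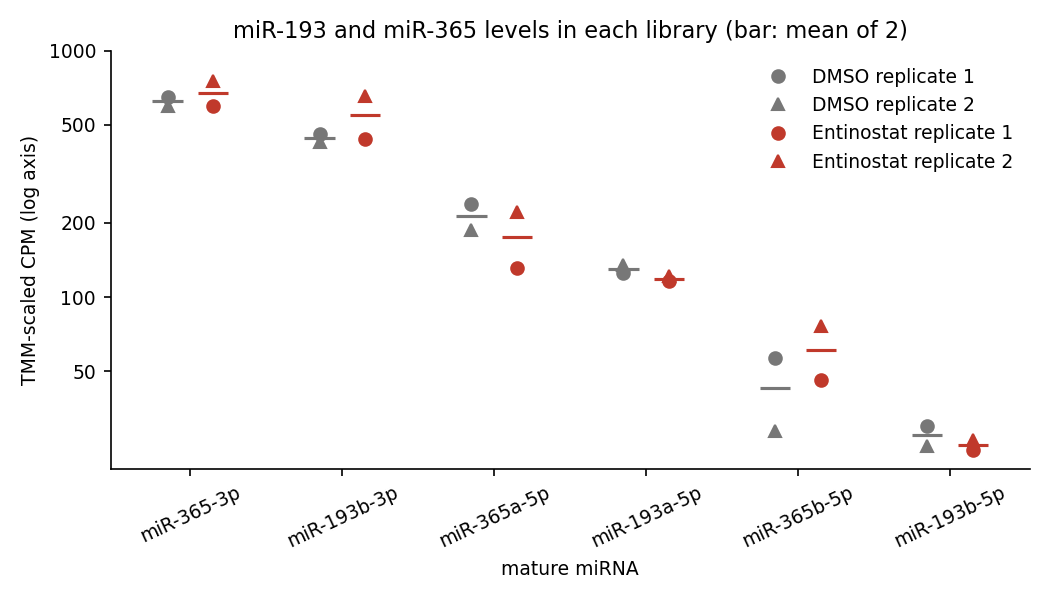
TMM-scaled CPM on a log axis for the 6 distinct members, with 1 point per library (circle, replicate 1; triangle, replicate 2) and a bar at the mean of 2 libraries. Entinostat replicate 2 is the highest library for miR-365-3p, miR-193b-3p and miR-365b-5p, and the entinostat points of miR-193a-5p lie just below the DMSO points.

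**Figure D2:**
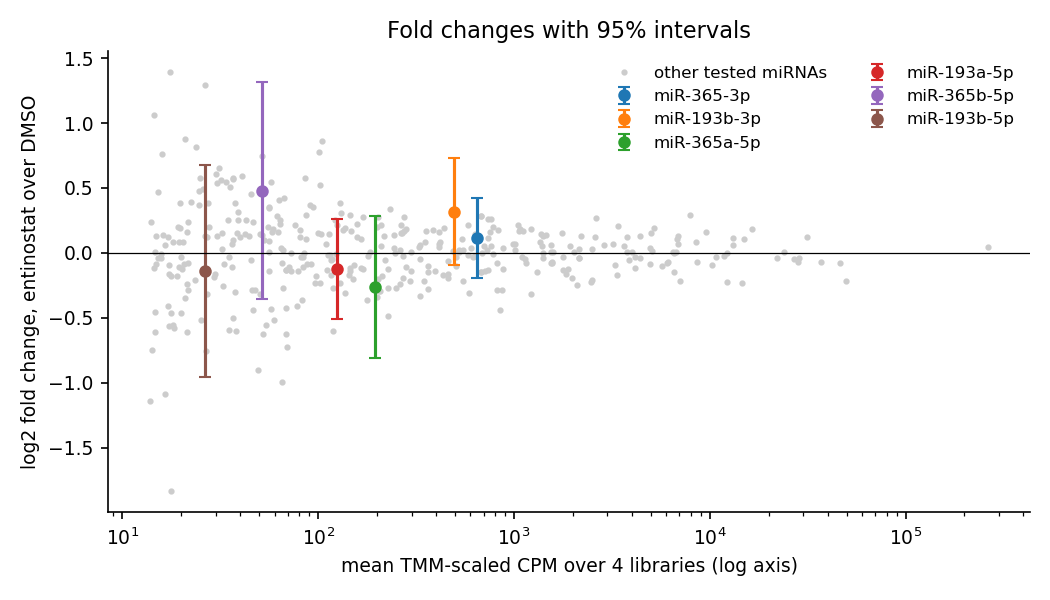
Log2 fold change of entinostat over DMSO against mean TMM-scaled CPM on a log axis for 401 tested miRNAs (grey), with 95% intervals for the members. All 6 intervals include 0, and they are widest for the rare miR-193b-5p and miR-365b-5p.

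In 5 of the 6 members, the exception being miR-193a-5p, the entinostat libraries lay at least as far apart on the log2 scale as the size of the fold change between treatments, and in miR-193b-5p these were equal at 0.14. Between the entinostat libraries, miR-365a-5p was 1.69-fold higher in replicate 2 than in replicate 1 and miR-193b-3p 1.499-fold. Among the 237 miRNA rows of 100 CPM or more, 2 had a gap between entinostat libraries at least as wide as that of miR-365a-5p and 5 one as wide as that of miR-193b-3p, each count including the member itself. For miR-365-3p the gap was 1.26-fold, and 35 rows had one as wide, both identical rows included. For miR-193a-5p it was 1.05-fold, and 174 rows had one as wide. The median gap of these rows was 0.13 log2 units with entinostat and 0.12 with DMSO. Between the DMSO libraries, miR-193b-3p, miR-365-3p and miR-365a-5p were lower in replicate 2, at 0.927, 0.921 and 0.780 of replicate 1. The rarer miR-365b-5p moved by -0.99 log2 units from replicate 1 to 2 with DMSO and by 0.73 with entinostat. Entinostat replicate 1 had the lowest total of the 4 libraries (547875 counts) and entinostat replicate 2 held 753104, and the part of depth in these gaps was not tested.

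**Figure D3:**
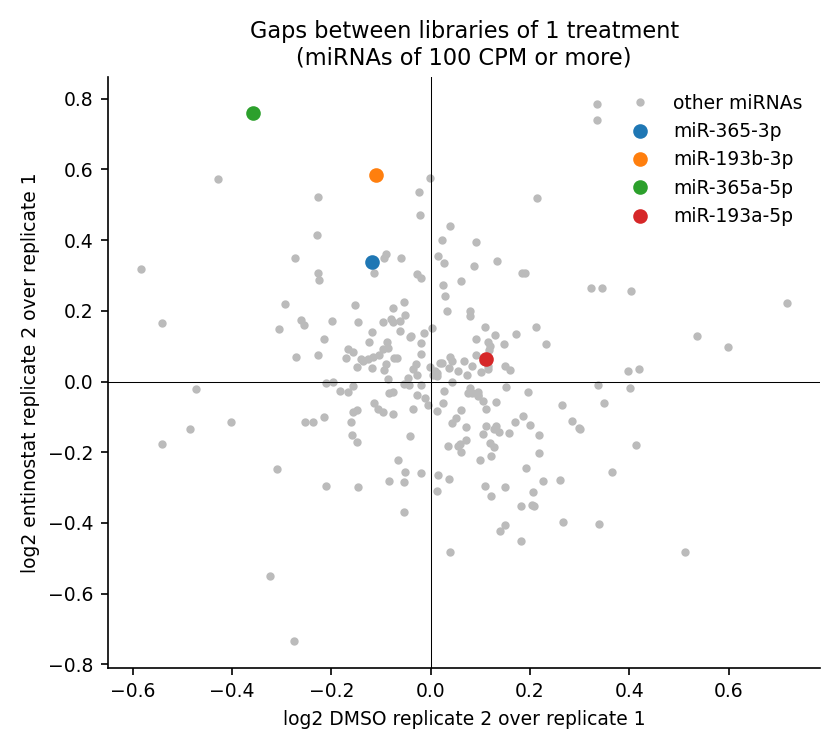
Log2 ratio of replicate 2 to replicate 1 in the DMSO libraries (horizontal) and in the entinostat libraries (vertical) for 237 miRNA rows of 100 CPM or more. The points of miR-365a-5p, miR-193b-3p and miR-365-3p lie at the upper left, at 0.76, 0.58 and 0.34 on the vertical axis, and miR-193a-5p lies near the centre.

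Ratios within a library need no scaling between libraries and show how the arms of a hairpin were balanced. The 3p arm made up 93.9% (exact 95% interval 91.3 to 95.9%) and 94.5% (90.9 to 96.9%) of miR-193b counts with DMSO. With entinostat it made up 94.8% (91.3 to 97.2%) and 96.1% (94.1 to 97.6%). The 4 intervals overlapped, and the 3p arm was the major one in each. The log2 ratio of 3p to 5p was 4.02 ± 0.11 with DMSO and 4.42 ± 0.31 with entinostat (SD, n = 2; two-sided exact permutation p = 0.333, adjusted over 3 arm ratios 0.50). The smallest p that 2 libraries against 2 allow is 0.333.

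The arms of miR-365 were closer to each other. With both hairpins joined, the 3p arm made up 68.7% (exact 95% interval 65.5 to 71.7%) and 73.5% (69.2 to 77.5%) of miR-365 counts with DMSO. It made up 77.1% (72.8 to 81.1%) and 71.7% (68.4 to 74.8%) with entinostat. The highest value belonged to entinostat replicate 1, where miR-365a-5p was low. These shares take the identical 3p rows once, as if each shared read had been counted to both names. If the reads had been split between the names, the rows would be summed and the shares would be 81.4% and 84.7% with DMSO and 87.1% and 83.5% with entinostat. The sources used here do not say which was done. The differences between treatments in the log2 ratios below are the same either way. The log2 ratio of miR-365-3p to miR-365a-5p was 1.56 ± 0.17 with DMSO and 1.98 ± 0.30 with entinostat (SD, n = 2; exact permutation p = 0.333, adjusted 0.50). Against miR-365b-5p it was 3.95 ± 0.62 and 3.50 ± 0.28 (exact permutation p = 0.667, adjusted 0.667).

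Among 132 hairpins with 10 or more counts on each arm over all libraries, the 3p arm was the more abundant in 71 (53.8%). The 3p to 5p ratio was 18.7 for miR-193b over all libraries, a value reached or passed by 32 of the 132, itself included. It was 3.24 for miR-365-3p over miR-365a-5p, and 6.48 with the identical 3p rows summed. That ratio sets 3p reads of both hairpins against the 5p arm of 1. It is counted among the 132 and the 71, but its place is not read as that of a single hairpin. The major arms miR-193b-3p and miR-365-3p start with A and U, the minor arm miR-193b-5p starts with C, and the minor arms miR-365a-5p and miR-365b-5p start with A. In 115 hairpins with a RefSeq sequence for both arms, the major arm started with A or U in 73.9% and the minor arm in 59.1%.

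**Figure D4:**
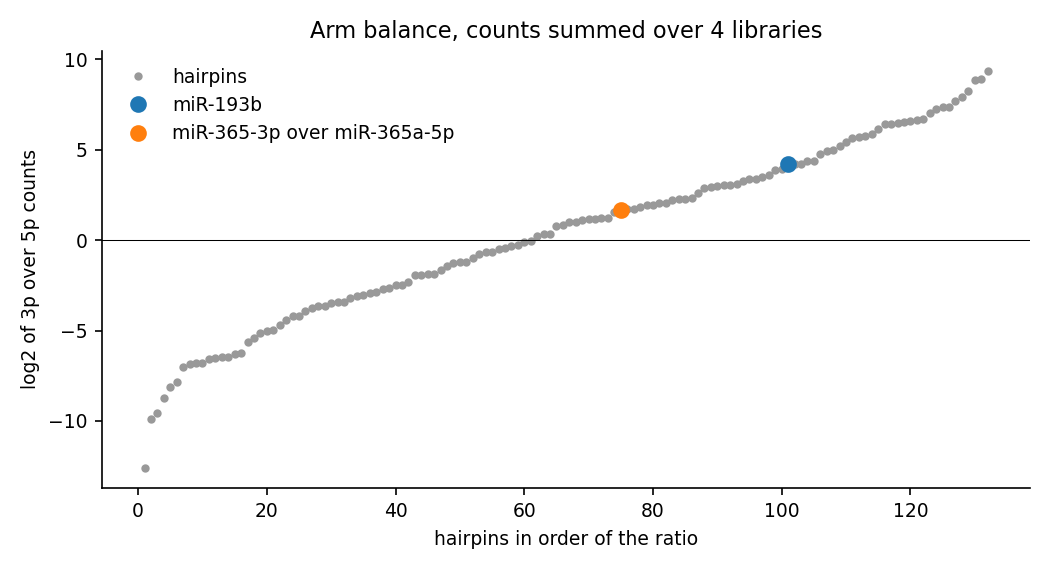
Log2 of 3p over 5p counts, summed over 4 libraries, for 132 hairpins in order of the ratio. The miR-193b hairpin lies at 4.23 and miR-365-3p over miR-365a-5p at 1.69, both on the side where the 3p arm is the more abundant, and the second value pools the 3p reads of both miR-365 hairpins.

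The share of miR-365b-5p among the miR-365 5p counts gives the chromosome 17 part of that arm. It was 19.1% of 277 counts (exact 95% interval 14.7 to 24.3%) and 13.2% of 121 (7.75 to 20.6%) with DMSO. With entinostat it was 26.0% of 96 (17.6 to 36.0%) and 25.7% of 226 (20.1 to 31.9%). Both entinostat shares lay above both DMSO shares, and the interval of each entinostat library overlapped that of each DMSO library. This share was chosen after its values were seen, so no test is given. In every library miR-365a-5p was the larger part. The arms may be recovered unequally, so the share need not be that in the cells.

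**Figure D5:**
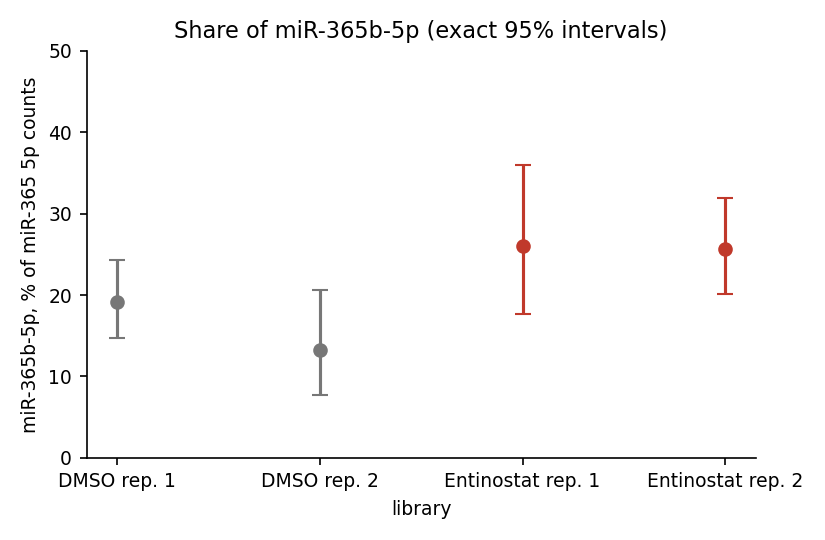
Percent of miR-365 5p counts that were miR-365b-5p in each library, with exact 95% intervals that cover counting error only. The DMSO libraries lie at 19.1 and 13.2% and the entinostat libraries at 26.0 and 25.7%.

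Ratios between members were compared in 3 pairs. The log2 ratio of miR-193b-3p, from chromosome 16, to miR-365-3p, which either chromosome can supply, was -0.50 and -0.49 with DMSO and -0.45 and -0.20 with entinostat. Both entinostat libraries lay above the DMSO libraries, entinostat replicate 1 by little, and the mean difference was 0.17 (two-sided exact permutation p = 0.333, adjusted over 3 pairs 0.50). Against miR-193a-5p, miR-193b-3p had log2 ratios of 1.87 and 1.65 with DMSO and 1.92 and 2.44 with entinostat, a mean difference of 0.41 (exact permutation p = 0.333, adjusted 0.50). For miR-365-3p against miR-193a-5p the mean difference was 0.24 (exact permutation p = 0.667, adjusted 0.667), and the groups overlapped. The exact permutation test could not pass 0.05 for any of the 3 pairs.

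The miRNAs whose pattern over the 4 libraries was most like a member's were found among the 237 rows by the root mean square difference of centred log2 levels. For miR-193b-3p they were miR-342-3p (0.08 log2 units), miR-877-5p (0.08) and miR-766-3p (0.10), each likewise highest in entinostat replicate 2. For miR-365-3p they were miR-423-5p (0.01), miR-100-5p (0.05) and miR-16-5p (0.06). For miR-193a-5p they were miR-1271-5p (0.02), miR-185-5p (0.02) and miR-222-3p (0.04). With 4 libraries these distances are descriptions only.

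Other miRNAs encoded within 5 Mb of the hairpins were followed as neighbours. On chromosome 16, 10 rows were listed and 6 tested, of which 0 were called, 3 lay above and 3 below 0 (median log2 fold change -0.07). Those above 0 were all entries of miR-3180, at log2 fold changes of 0.00466 to 0.00746, so the rows are not all separate miRNAs. The abundant miR-484 stood at 2098 ± 67.6 CPM in DMSO and at 1841 ± 200.2 CPM in entinostat libraries (SD, n = 2), with a log2 fold change of -0.19 (edgeR adjusted p = 0.595). For miR-6511b-3p, miR-6511a-3p and miR-3180-3p the log2 fold changes were -0.14, -0.16 and 0.00684, and the names miR-3180 and miR-6511 cover several near-identical hairpins. On chromosome 17, 4 rows were listed and 2 tested, with 0 called. The arms of miR-423 were at 6527 ± 363.7 and 7018 ± 1048 CPM (miR-423-5p, log2 fold change 0.10) and at 29095 ± 759.6 and 28309 ± 89.1 CPM (miR-423-3p, -0.04). The nearest row to a member, miR-4725-3p, is encoded just upstream of MIR365B and had 2 and 4 counts in the DMSO libraries and none after entinostat, too few to test.

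A pair of wider lists held miRNAs tied to brown or beige fat, or to growth and survival genes. They were chosen by name, without regard to the direction of the role, and every listed arm of a name was taken. Of miRNAs tied to brown or beige fat besides the miR-193b and miR-365 cluster, 37 rows were listed and 26 tested. Of these 0 were called, 15 lay above and 11 below 0 (median log2 fold change 0.04), where 51.9% of all tested miRNAs lay above 0. Those of lowest p were miR-106b-5p (log2 fold change 0.53), miR-93-5p (0.19), miR-27a-5p (0.26) and miR-155-5p (0.54), each at an edgeR adjusted p of 0.595. For names known for repressing growth and survival genes, 43 rows of either arm were listed and 28 tested, with 0 called, 15 above and 13 below 0 (median 0.00604). Those of lowest p were miR-195-3p (0.86, edgeR adjusted p = 0.316), let-7e-3p (-0.60), miR-15b-3p (0.58) and let-7b-3p, which had 0 counts in entinostat replicate 1 (the last 3 at an edgeR adjusted p of 0.595). All of these are 3p arms, and which arm carries the known role was not considered. The lists share 3 names.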

How the data were processed

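Small RNA was sequenced in 4 libraries, 2 per treatment, grouped by sample title. The deposited table gives whole-number counts for each mature miRNA. The authors' deposited CPM values equal the count over the column total times 1e+06. The submitters' processing notes name bcl2fastq 2.18. Not given in the sources used here are the aligner, counter, annotation, build and treatment of reads shared by similar miRNAs. Ligation and PCR can favour some sequences, and no molecular identifier is named.

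Counts of the whole table were scaled by TMM and tested with edgeR 4.0.16 in R 4.3.3 (quasi-likelihood, treatment as the only term). Rows were kept by filterByExpr (minimum count 10, minimum total 15), which left 401 of 826. Calls used a Benjamini-Hochberg adjusted p under 0.05. Each standard error is the size of the log2 fold change over the square root of the quasi-likelihood F statistic, and the 95% intervals used it. Their degrees of freedom, 8.41, draw on the variances of all tested rows. The overall dispersion gave a biological coefficient of variation of 8.05%. Shares have Clopper-Pearson 95% intervals, and ratios were compared by exact permutation (SciPy 1.17.1). Sequences and positions came from RefSeq (GRCh38.p14), overlaps from GENCODE 29.

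The members and lists were chosen with earlier results of these data known. Named besides all members were the 3 rows most like miR-193b-3p, miR-193a-5p and miR-365-3p, and up to 4 rows of lowest p among neighbours and in each list. Alternatives were scaling, filter, tool (DESeq2 1.42.0, limma 3.58.1 as voom and, on log2 of the deposited CPM plus 1 or 0.5, as trend), a replicate block, each library left out, and 1 of the identical rows removed. Every member passed the filter.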

Additional observations from a re-analysis of the deposited data

How the results depend on the processing

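Of 96 alternative values of the members' fold changes, 91 kept the sign and the call, 4 changed sign and 1 became a call, all 5 on leaving out a library. Leaving out each library in turn gave log2 fold changes of -0.024 to 0.55 for miR-193b-3p, -0.27 to 0.00727 for miR-193b-5p, -0.075 to 0.25 for miR-365-3p (miR-365a-3p) and -0.73 to 0.016 for miR-365a-5p. The lone library is then assumed to vary like the other group. The same ranges were -0.052 to 0.15 for miR-100-5p, -0.045 to 0.22 for miR-16-5p, -0.16 to 0.41 for miR-342-3p, -0.075 to 0.36 for miR-766-3p, -0.13 to 0.38 for miR-877-5p, -0.063 to 0.24 for miR-423-5p, -0.83 to 0.29 for miR-6511a-3p, -0.51 to 0.081 for miR-6511b-3p and -0.057 to 0.053 for miR-3180-3p. The cause was not tested. The count of called miRNAs, 0, ran from 0 to 5 on leaving out a library (5 without entinostat replicate 1) and was 4 with the edgeR likelihood ratio test, which called miR-195-3p but no member. Upper quartile factors moved the median of all tested miRNAs to 0.12 and turned miR-1271-5p to 0.016 and miR-423-3p to 0.073, while miR-193a-5p stood at -0.01, miR-193b-5p at -0.02 and miR-193b-3p at 0.44. The unadjusted edgeR quasi-likelihood p of miR-193b-3p, 0.116 in the main fit, was then 0.022, where 44 of 401 miRNAs lay under 0.05. Without the low-count filter it was 0.027, where 45 of 826 did. For miR-3180-3p the value was -0.00649 with a minimum of 10 CPM and -0.000608 with DESeq2. The differences in arm and member ratios kept their signs under every alternative run, but their size moved. Where the groups did not overlap, leaving out a library could not change the sign. The replicate block and the summing of the identical rows return the main difference by construction. Leaving out each library gave 0.18 to 0.62 for miR-193b 3p over 5p, 0.21 to 0.63 for miR-365-3p over miR-365a-5p, -0.89 to -0.019 over miR-365b-5p, 0.051 to 0.30 for miR-193b-3p over miR-365-3p, 0.15 to 0.67 over miR-193a-5p and 0.10 to 0.38 for miR-365-3p over miR-193a-5p. With a replicate block 0 miRNAs were called, and miR-193b-3p stood at 0.28. Deviations of same-numbered libraries were weakly and inversely correlated (-0.13 over 237 miRNA rows), and with crossed numbers as the block, chosen after seeing the data, 0 were called. Among the members, the standard error was largest for the rare miR-365b-5p (0.37, 152 counts over all libraries) and miR-193b-5p (0.36, 75 counts). It did not follow the counts throughout, being 0.24 for miR-365a-5p (568 counts) and 0.17 for miR-193a-5p (348 counts). The part of depth in these errors was not tested.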
